A study of Mus musculus with 28 samples.

Results

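Medullary thymic epithelial cells of the low class, sorted as post-Aire mTEClo, were compared between mice of 2 genotypes. Double mutants carried Foxn1-Cre with both Hnf4a alleles floxed and had no intact Hnf4g allele. Controls kept 1 intact allele of each gene. The members are the 8 libraries that the labels give to these 2 groups, of 28 in all, and every gene of the count table was examined. The double-mutant group (4 libraries) was Foxn1cre(+/-)Hnf4a(fl/fl)Hnf4g(-/-), and the control group (4 libraries) was Foxn1cre(+/-)Hnf4a(fl/+)Hnf4g(+/-), both on C57BL/6. The same table gave 3 libraries of Foxn1cre(+/-)Hnf4a(fl/+)Hnf4g(-/-) mTEClo, called Hnf4g-removed here, and 3 of Foxn1cre(+/-)Hnf4a(fl/fl)Hnf4g(+/-) mTEClo, called Hnf4a-removed. It also gave double-mutant and control mTEChi (4 libraries each), and wild-type mTEC from an entero-hepato gate and from outside it (3 each). No group with both Hnf4 genes whole was among the mTEClo and mTEChi libraries. Every one of those animals carried Foxn1-Cre, at least 1 floxed Hnf4a allele and at least 1 deleted Hnf4g allele. Cre driven by Foxn1 acts in thymic epithelium, whereas the Hnf4g allele is written without a conditional mark. Each library came from about 1000 sorted cells after magnetic removal of CD45+ cells. Age is not given, nor whether each library is its own animal. The p-values therefore rest on library-to-library spread, part or all of which may be technical.

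Medullary thymic epithelium shows developing T cells the proteins of other organs. Beyond the Aire stage it holds mimetic cells, which take on parts of the program of a peripheral cell type, such as enterocytes and hepatocytes (entero-hepato), microfold cells of the gut, tuft cells, secretory cells, muscle or keratinocytes. HNF4A and HNF4G are nuclear receptors that act as transcription factors in gut and liver, where they bind and activate genes of the brush border, lipid handling and plasma protein secretion. The comparison asks which transcripts of post-Aire mTEClo depend on the pair.

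The libraries held 6752094 to 7599304 counts in double-mutant mTEClo, against 6407618 to 7445874 in control mTEClo. Mitochondrial genes took 1.53% to 1.74% of counts in double mutants, against 1.62% to 1.68% in controls, and ribosomal protein genes 1.37% to 1.45%, against 1.53% to 1.63%. The label was checked on markers: Epcam, of epithelium, was at 1096 ± 50.8 CPM in double mutants and 1095 ± 47.9 CPM in controls (mean ± SD, n = 4 each, as throughout for mTEClo; CPM on TMM-scaled library sizes). Psmb11, the cortical proteasome subunit, was at 0.984 and 1.89 CPM. Equal Epcam does not show that the sorted populations match. Of 13 tested general epithelial genes, 5 were lower and 0 higher at an unadjusted p under 0.05 (edgeR). In H2-Aa, Cd74 and Foxn1 every double mutant lay below every control (log2 fold change -0.95, -0.82 and -0.82). None of the 13 passed the adjusted threshold by edgeR, DESeq2 or voom, and their median log2 fold change was -0.09. Control replicate 1 was nearer the double mutants (mean Spearman correlation 0.961) than the other controls (0.959). Hnf4a had 22, 21, 17 and 29 counts in the double mutants, against 17, 24, 38 and 48 counts in the controls (log2 fold change -0.56 with SE 0.41, adjusted p = 0.645, edgeR). Hnf4g had 33, 22, 36 and 57 counts, against 68, 85, 106 and 89, with no overlap (log2 fold change -1.28 with SE 0.30, adjusted p = 0.0633, edgeR; the adjusted p was 0.00487 with DESeq2 and 0.048 with voom). Counts were summed over whole genes and the deleted exons are not given, so these values do not check the deletions.

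Of 18775 genes tested in 1 edgeR fit of the 14 mTEClo libraries, 109 were lower and 30 higher in double-mutant than in control mTEClo at an adjusted p under 0.05, which is 0.581% and 0.16% of genes. The losses were large and the gains small. Among the lower genes the median log2 fold change was -1.75 (range -7.15 to -0.57, the lowest being Trem2's fitted value against 0 counts), 86 were over 2-fold lower and 45 over 4-fold lower. Among the higher genes the median was 0.53 (range 0.39 to 0.93) and 0 passed 2-fold. The median over all genes was -0.0015. In each of the 139 genes the 4 double-mutant libraries did not overlap the 4 controls. The 139 were picked by a test on these same libraries, so their lack of overlap is not added support. Over all genes tested 4.39% lay apart on the lower side and 3.54% on the higher side. A total of 2315 genes had an unadjusted p under 0.05. Leaving out control replicate 1 gave 144 lower and 63 higher genes, and leaving out Hnf4g-removed replicate 1, the mTEClo library least like its own group, gave 209 lower and 53 higher. The fewest, 42 lower and 5 higher, were called without double-mutant replicate 2. Of the 139 calls, 34 (31 lower, 3 higher) held in all 8 fits that left out 1 double-mutant or control library.

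**Figure D1:**
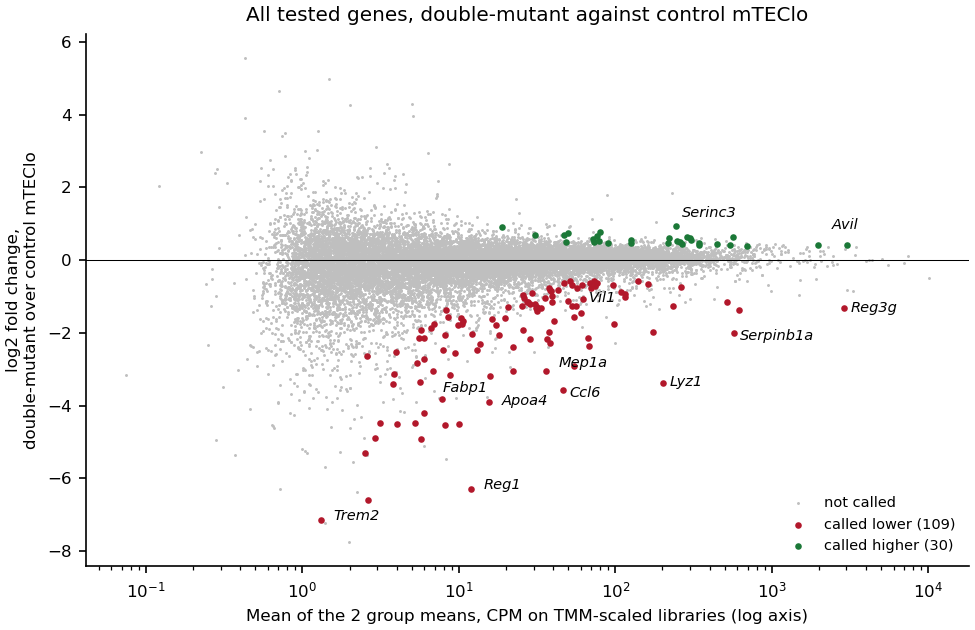
Each point is 1 of the 18775 tested genes, with the mean of the 2 group means in CPM on a log axis and the log2 fold change of double-mutant over control mTEClo on the other axis. Red points are the 109 genes called lower and reach -7.15, while green points are the 30 called higher and all lie below 1.

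The 6 lower genes of smallest p were Lgals4, Fabp1, Fgr, Lyz1, Ccl6 and Ccl9. Fabp1 (chr6:71199827-71205023, GRCm38), the fatty acid binding protein of enterocytes and hepatocytes, was at 3.15, 3.83, 2.51 and 2.97 CPM in the double-mutant libraries, against 11.3, 25, 45 and 32.6 CPM in the controls. The highest double mutant lay below the lowest control (log2 fold change -3.18 with SE 0.35, adjusted p = 0.000700, edgeR). Ccl6 (chr11:83587882-83593087), a CC chemokine, was at 9.45, 5.6, 9.0 and 4.61 CPM, against 49.3, 68.3, 112 and 111 CPM in controls. The groups lay far apart, and the control spread was itself over 2-fold (log2 fold change -3.56 with SE 0.43, adjusted p = 0.00147, edgeR). Lyz1 (chr10:117287797-117292868), the Paneth cell lysozyme, was at 23, 19.3, 63 and 37 CPM, against 361, 229, 283 and 601 CPM (log2 fold change -3.37 with SE 0.40, adjusted p = 0.00142, edgeR). Fgr, a Src-family kinase of myeloid cells, fell to 2.75 ± 0.708 CPM, against 16.1 ± 3.96 CPM in controls (log2 fold change -2.55 with SE 0.29, adjusted p = 0.000838, edgeR). These 6 calls held in all 8 fits that left out a library.

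A letter string of an HNF4 site stood upstream of the start of 3 lower genes in the RefSeq promoter table for GRCm38.p6, and their sequences are shown for that reason. CAAAGTCCA and CAAAGGTCA were searched on both strands in windows of 300 bases, from 250 before to 50 after the start. The strings share their first 5 letters, and a gene with either was counted once. A match was found for 3 of 87 lower genes with a listed promoter (3.45%), 0 of 23 higher genes, 0.994% of tested genes and 1.1% of all 27025 genes in the table. The 250 bases before each start are given 5′ to 3′ on the gene's strand, with the matching letters in capitals. Each match is read on the opposite strand.
Ccl6: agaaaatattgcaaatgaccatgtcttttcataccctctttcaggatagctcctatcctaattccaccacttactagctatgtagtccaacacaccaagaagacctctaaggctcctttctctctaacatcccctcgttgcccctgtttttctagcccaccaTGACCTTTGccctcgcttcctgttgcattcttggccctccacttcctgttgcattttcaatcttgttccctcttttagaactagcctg
Muc13: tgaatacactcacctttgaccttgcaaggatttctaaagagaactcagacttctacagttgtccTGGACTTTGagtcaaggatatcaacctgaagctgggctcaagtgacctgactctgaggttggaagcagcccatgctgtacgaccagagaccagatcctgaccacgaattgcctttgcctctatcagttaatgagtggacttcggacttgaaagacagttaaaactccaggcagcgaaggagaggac
Trim31: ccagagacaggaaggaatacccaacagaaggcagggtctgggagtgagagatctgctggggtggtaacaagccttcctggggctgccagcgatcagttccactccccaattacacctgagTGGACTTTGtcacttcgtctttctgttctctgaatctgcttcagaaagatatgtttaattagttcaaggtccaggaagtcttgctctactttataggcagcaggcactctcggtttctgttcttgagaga
The Ccl6 window is chr11:83593088-83593337 on the minus strand and holds CAAAGGTCA with its first shown base at -88 from the start. The Muc13 window is chr16:33794239-33794488 on the plus strand and holds CAAAGTCCA at -186, and the Trim31 window is chr17:36897880-36898129 on the plus strand and holds CAAAGTCCA at -130. Muc13, a transmembrane mucin of the gut surface, was at 16.6, 11.4, 10.5 and 22.3 CPM in double mutants, against 59.6, 49.5, 55.9 and 75.3 CPM in controls (log2 fold change -1.99 with SE 0.30, adjusted p = 0.00682, edgeR). Trim31, a RING-finger ubiquitin ligase, was at 1.92, 0.295, 0.926 and 2.68 CPM, against 5.37, 15.1, 14.4 and 14.1 CPM (log2 fold change -3.06 with SE 0.49, adjusted p = 0.00924, edgeR). Neither gene's groups overlapped, and both calls held in all 8 leave-one-out fits.

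Enterocyte genes were lower in part. Of the 23 tested genes of lipid absorption 4 were lower and 0 higher (17.4% called, against 0.74% of all genes in either direction), with a list median of -0.17. Apoa4, the apolipoprotein of chylomicrons, was at 1.92, 1.47, 2.78 and 1.64 CPM in double mutants, against 11.1, 20.2, 47.4 and 38.5 CPM in controls (log2 fold change -3.89 with SE 0.70, adjusted p = 0.0174, edgeR). Apoc3, which slows the clearance of triglyceride-rich particles, was at 0.66 ± 0.402 CPM, against 15.7 ± 8.6 CPM (log2 fold change -4.52 with SE 0.88, adjusted p = 0.0232, edgeR). Abcg5, a subunit of the sterol exporter, was at 2.22 ± 0.0866 CPM, against 9.82 ± 4.39 CPM (log2 fold change -2.13 with SE 0.44, adjusted p = 0.0346, edgeR). All 3 lay apart in every library. Apoa4 lost the call without any double-mutant replicate or control replicate 3 or 4 (adjusted p up to 0.0626), Apoc3 without any double-mutant replicate or control replicate 3 or 4 (adjusted p up to 0.0861) and Abcg5 without any double-mutant replicate or control replicate 2, 3 or 4 (adjusted p up to 0.132). With voom 1 of the 23 was called lower, and the adjusted p was 0.125 for Apoa4, 0.0779 for Apoc3 and 0.134 for Abcg5. Apoa1, the main apolipoprotein of HDL, was at 2.1 CPM, against 28 CPM, apart in every library but not past the test (log2 fold change -3.75 with SE 1.02, adjusted p = 0.12, edgeR). Levels of Mttp, which loads lipid onto apolipoprotein B, were 24.8 ± 1.49 CPM in double mutants and 24.6 ± 0.82 CPM in controls (log2 fold change 0.01 with SE 0.15, adjusted p = 0.99, edgeR). Acsl5, an acyl-CoA synthetase, was at 169 and 170.0 CPM (log2 fold change -0.01, edgeR adjusted p = 0.991).

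In the brush border both scaffold and enzyme genes were among the lower ones. Of 20 structural genes 4 were lower (20%, median -0.17): Anks4b and Ush1c, which tether the links between microvillus tips, Vil1, which bundles microvillus actin, and Eps8, a capping protein at the tips. Vil1 (chr1:74409376-74435559) was at 29.7, 30.1, 37.6 and 36.1 CPM in double mutants, against 58.7, 69, 81.5 and 108 CPM in controls (log2 fold change -1.25 with SE 0.19, adjusted p = 0.00682, edgeR). The counts do not use strand as far as the sources say, and Vil1 overlaps Usp37 on the opposite strand, as 20 of the lower and 10 of the higher genes overlap some gene. Anks4b was at 6.96 ± 2.91 CPM, against 29.3 ± 6.3 CPM, and Ush1c at 3.16 ± 0.401, against 13.1 ± 4.08 CPM (adjusted p = 0.00445 and 0.0200, edgeR). The cadherins they bind were not past the test in mTEClo. Cdhr5 lay apart at 174 ± 23.8 CPM, against 231 ± 15.2 CPM (log2 fold change -0.41 with SE 0.12, adjusted p = 0.156, edgeR). Cdhr2 was at 162, against 187 CPM (log2 fold change -0.21, edgeR adjusted p = 0.704). In double-mutant over control mTEChi, Cdhr5 was lower (log2 fold change -1.90, adjusted p = 0.000417, edgeR). Vil1 and Anks4b held in all leave-one-out fits, while Ush1c lost its call without any double-mutant replicate or control replicate 4 (adjusted p up to 0.0793) and Eps8 without any double-mutant replicate or control replicate 3 or 4 (adjusted p up to 0.111). Eps8 was also not called with voom (adjusted p = 0.053).

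Of 15 tested brush border hydrolases 2 were lower (13.3%, median -0.68). Mep1a (chr17:43474324-43502812), the alpha subunit of the metalloprotease meprin, was at 1.92, 14.6, 6.22 and 8.62 CPM in double mutants, against 44.4, 53.2, 77.8 and 83.1 CPM in controls (log2 fold change -3.05 with SE 0.43, adjusted p = 0.00454, edgeR). Sis, the sucrase-isomaltase that splits dietary sugars, was at 0.822, 0.737, 3.31 and 2.08 CPM, against 9.0, 10.2, 19.3 and 24.9 CPM (log2 fold change -3.17 with SE 0.50, adjusted p = 0.00869, edgeR). Both lay apart in every library and held in all 8 leave-one-out fits. Dpp4, a dipeptidyl peptidase, was at 15.1 ± 4.9 CPM in double mutants and 15.5 ± 5.79 CPM in controls (adjusted p = 0.974, edgeR).

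Among 15 genes of apical adhesion and mucins 5 were lower (33.3%, median -1.25): Muc13 above, the galectins Lgals4 and Lgals2, the cadherin Cdh17 and Ceacam20. Lgals4 was at 17.5, 12.2, 7.94 and 15 CPM in double mutants, against 52.5, 62.1, 60.6 and 78.3 CPM in controls (log2 fold change -2.27 with SE 0.23, adjusted p = 0.000311, edgeR). Cdh17, the liver-intestine cadherin, was at 22.9, 33.8, 40.1 and 32.4 CPM, against 72.1, 83.7, 83.6 and 113 CPM (log2 fold change -1.45 with SE 0.24, adjusted p = 0.0125, edgeR). Ceacam20 was at 1.0 ± 0.402 CPM, against 10.3 ± 3.87 CPM (log2 fold change -3.35 with SE 0.54, adjusted p = 0.00934, edgeR). Lgals2 was at 0.44 ± 0.47, against 10.1 ± 2.92 CPM (log2 fold change -4.49 with SE 0.83, adjusted p = 0.0178, edgeR). The 5 genes were apart in every library, and Lgals2 lost its call without double-mutant replicate 1 or 3 or control replicate 3 (adjusted p up to 0.0657). With voom 3 of the 15 were called, and the adjusted p was 0.0681 for Ceacam20 and 0.0923 for Lgals2. Cldn2, a claudin of leaky epithelia, lay apart at 1.15 CPM, against 11 CPM, without passing (log2 fold change -3.24 with SE 0.75, adjusted p = 0.0592, edgeR).

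**Figure D2:**
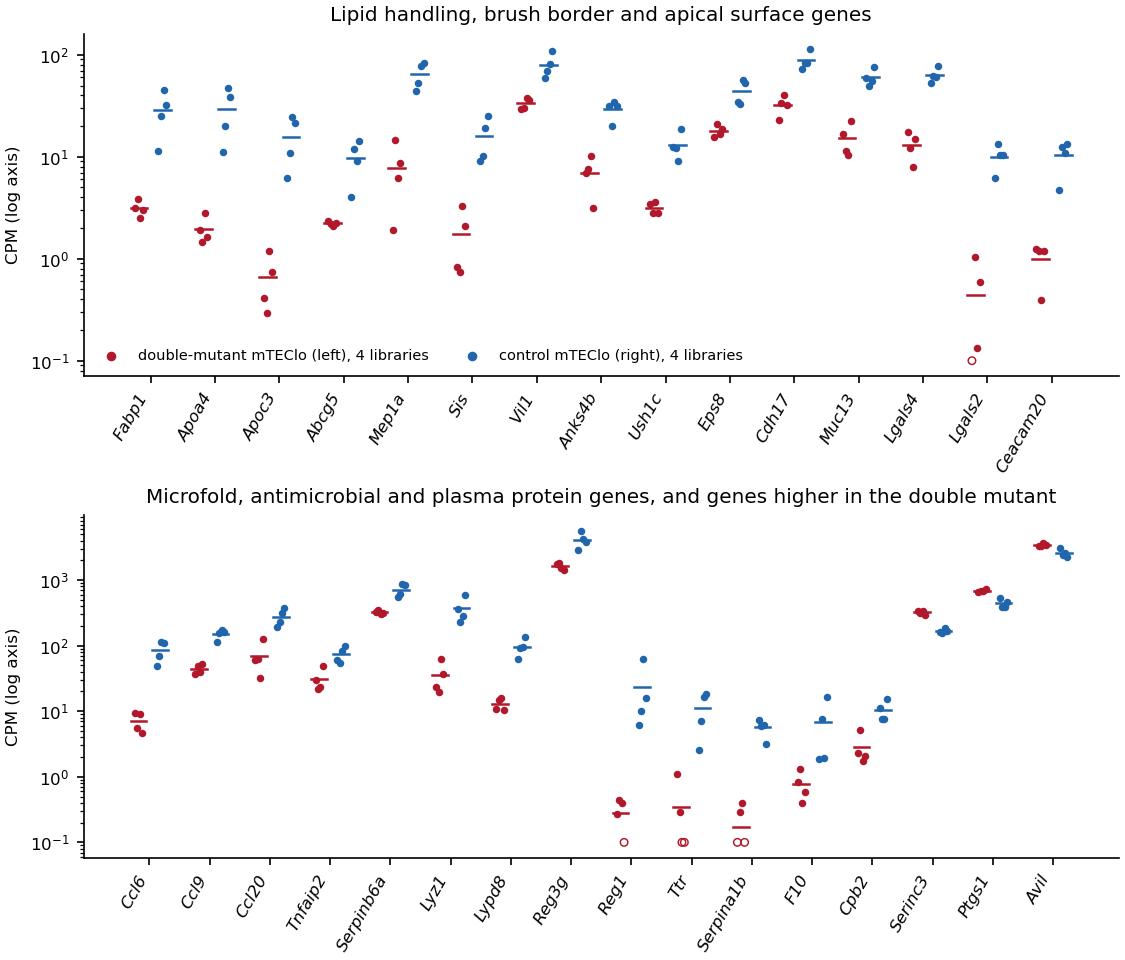
CPM on a log axis for each of the 4 double-mutant libraries (left, red) and 4 control libraries (right, blue) of each gene, with bars at the group means and hollow points drawn at 0.1 CPM for values at or below it. All genes shown were called, and called genes had no overlap between groups. The lower gut and liver genes sit apart by far more than Serinc3, Ptgs1 and Avil, the 3 higher genes at the right of the lower panel.

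Absorption beyond the lipid genes was little called. Of 24 intestinal transporters 0 were lower and 1 was higher by edgeR (DESeq2 called 1 lower and voom 0, and 3 were lower at an unadjusted p under 0.05). The higher one was Slc40a1, the iron exporter ferroportin, at 65.2, 65.2, 61.3 and 58.3 CPM in double mutants, against 45.5, 41.5, 26.8 and 35.9 CPM in controls (log2 fold change 0.74 with SE 0.16, adjusted p = 0.0466, edgeR), a call that was lost without any double-mutant replicate or control replicate 2, 3 or 4 (adjusted p up to 0.148). Slc5a1, the sodium-glucose cotransporter, was at 29.6 and 31.1 CPM (adjusted p = 0.953, edgeR). Of 20 genes of fatty acid oxidation 1 was higher and 0 lower (DESeq2 and voom also called 0 lower, and 1 was lower at an unadjusted p under 0.05). The higher gene was Slc25a20, the carnitine carrier of mitochondria, at 149.8 ± 9.91 CPM, against 101 ± 10.2 CPM (log2 fold change 0.57 with SE 0.10, adjusted p = 0.0134, edgeR), a call lost without double-mutant replicate 2 or control replicate 3 (adjusted p up to 0.0532). Of 23 genes of xenobiotic oxidation and hydrolysis 2 were lower. Ces2c, an intestinal carboxylesterase, was at 10.3 ± 2.59 CPM, against 46.4 ± 20.9 CPM (log2 fold change -2.17 with SE 0.37, adjusted p = 0.0135, edgeR). Cyp3a13 was at 17.3 ± 6.66, against 39.6 ± 3.34 CPM (log2 fold change -1.20 with SE 0.25, adjusted p = 0.0342, edgeR). Ces2c lost its call without double-mutant replicate 2 or 3 (adjusted p up to 0.0545) and Cyp3a13 without double-mutant replicate 1 or 3 or any control replicate (adjusted p up to 0.114). None of 20 conjugating enzymes passed by edgeR or voom (1 lower by DESeq2, 2 lower at an unadjusted p under 0.05).

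Some genes of gut defence and of microfold cells, which carry antigen across the gut wall, were lower as well. All 20 tested antimicrobial genes had a negative log2 fold change (median -1.13) and 3 passed (15%): Lyz1 above, Lypd8, which keeps flagellated bacteria off the colon surface, and Reg3g, a C-type lectin that kills Gram-positive bacteria. Lypd8 was at 10.7, 14.7, 15.8 and 10.3 CPM in double mutants, against 62.4, 90.6, 96.1 and 137 CPM in controls (log2 fold change -2.90 with SE 0.44, adjusted p = 0.00682, edgeR). Reg3g was at 1766, 1841, 1550.0 and 1426 CPM, against 2859.7, 5589, 4180.4 and 3862 CPM (log2 fold change -1.32 with SE 0.24, adjusted p = 0.0174, edgeR). Lypd8 held in all leave-one-out fits and Reg3g lost its call without any double-mutant replicate or control replicate 2 or 3 (adjusted p up to 0.0638). Reg1, a related lectin outside the list, was at 0.274, 0.442, 0.397 and 0 CPM, against 6.18, 10.2, 62.2 and 16.1 CPM, with 1 control far above the others (log2 fold change -6.30 with SE 1.13, adjusted p = 0.0173, edgeR), a call lost without any double-mutant replicate (adjusted p up to 0.0607) and with voom (adjusted p = 0.377).

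Of 14 microfold genes 5 were lower (35.7%, median -0.79), and the chemokines led. Ccl9 was at 36.4, 49.1, 39.7 and 53.1 CPM in double mutants, against 115, 157, 171 and 159 CPM in controls (log2 fold change -1.76 with SE 0.22, adjusted p = 0.00149, edgeR). Ccl20, the ligand of CCR6, was at 60, 61.5, 32.3 and 126 CPM, against 189, 229, 318 and 369.6 CPM (log2 fold change -1.98 with SE 0.36, adjusted p = 0.0173, edgeR), and lost its call without double-mutant replicate 1 or 2 or control replicate 3 or 4 (adjusted p up to 0.0626). The others were Ccl6, Serpinb6a, a protease inhibitor, at 323 ± 21.4 CPM, against 713 ± 156 CPM (log2 fold change -1.14 with SE 0.15, adjusted p = 0.00274, edgeR), and Tnfaip2, at 31 ± 12.3, against 74.2 ± 20.8 CPM (log2 fold change -1.26 with SE 0.26, adjusted p = 0.0316, edgeR), a call lost without double-mutant replicate 1, 2 or 3 or control replicate 3 or 4 (adjusted p up to 0.118). Of the 14, 8 lay apart on the lower side, as did 4.39% of all genes. Pglyrp1, Aif1 and Anxa5 were among these 8 without passing. Pglyrp1 was at 109 ± 38.1 CPM, against 274 ± 80.7 CPM (log2 fold change -1.33 with SE 0.30, adjusted p = 0.0525, edgeR). Other members of the list also did not pass: Gp2, a receptor for bacterial pili, was at 1839.7 ± 242 CPM in double mutants and 1964 ± 409 CPM in controls. Spib, a factor of microfold differentiation, was at 813 ± 116 and 728 ± 61.3 CPM, and Tnfrsf11a, the RANK receptor, at 49.8 ± 12 and 65 ± 10.4 CPM (adjusted p = 0.897, 0.622 and 0.448 for the 3 genes, edgeR).

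One gene each was lower among 16 fluid secretion and chloride channel accessory genes and among 7 butyrophilin-like genes, which in the gut shape intraepithelial lymphocytes. Clca4a was at 3.92 ± 1.92 CPM in double mutants, against 22.1 ± 7.05 CPM in controls (log2 fold change -2.48 with SE 0.42, adjusted p = 0.0134, edgeR), a call lost without double-mutant replicate 2 (adjusted p up to 0.0532). Btnl6 was at 1.57 ± 0.80, against 10.3 ± 4.92 CPM (log2 fold change -2.71 with SE 0.52, adjusted p = 0.0224, edgeR), a call lost without double-mutant replicate 1, 2 or 3 or control replicate 2, 3 or 4 (adjusted p up to 0.0941). With voom Btnl6 was not called (adjusted p = 0.0786). The list medians were -0.90 and -1.23. Btnl6 and the lower pseudogene Btnl5-ps belong to a family of near copies, as do Lyz1, Serpina1b, Ces2c, H2-Q10 and Skint4, and reads shared within such families could be split between members.

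Genes of the hepatocyte were at low levels and few passed. Of 21 tested plasma protein genes 2 were lower (9.52%, median -0.05). Serpina1b, an alpha-1-antitrypsin gene, was at 0, 0.295, 0.397 and 0 CPM in double mutants, against 7.38, 6.01, 6.15 and 3.2 CPM in controls (log2 fold change -4.88 with SE 0.82, adjusted p = 0.0125, edgeR). Ttr, the carrier of thyroid hormone and retinol-binding protein, was at 1.1, 0.295, 0 and 0 CPM, against 2.55, 7.09, 16.6 and 18.3 CPM (log2 fold change -4.92 with SE 0.94, adjusted p = 0.0223, edgeR), and lost its call without double-mutant replicate 2, 3 or 4 or control replicate 3 or 4 (adjusted p up to 0.0782). Of 16 coagulation genes 2 were lower (12.5%, median -0.53). F10, factor X, was at 0.785 ± 0.401 CPM, against 6.95 ± 6.85 CPM (log2 fold change -3.12 with SE 0.68, adjusted p = 0.045, edgeR). Cpb2, an inhibitor of clot lysis, was at 2.82 ± 1.58, against 10.4 ± 3.74 CPM (log2 fold change -1.87 with SE 0.40, adjusted p = 0.0421, edgeR). F10 lost its call without any double-mutant replicate or control replicate 2 or 4 (adjusted p up to 0.164) and Cpb2 without double-mutant replicate 1, 3 or 4 or any control replicate (adjusted p up to 0.154). With voom 1 gene of each list was called, and Ttr and F10 were not (adjusted p = 0.219 and 0.298). With only the compared groups F10 was not called (adjusted p = 0.0562). Alb was at 6.5 ± 11.4 CPM in double mutants and 1.28 ± 1.04 CPM in controls (log2 fold change 2.32 with SE 1.31, adjusted p = 0.516, edgeR). By edgeR and by voom, 0 of 15 complement genes and 0 of 22 genes of hepatocyte metabolism passed, DESeq2 called 1 lower in each, and 2 and 7 were lower at an unadjusted p under 0.05.

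No gut or liver regulator of the list passed by edgeR. Of 25 tested transcription factors of these organs, Hnf4g among them, 0 were called. DESeq2 called 2 lower and voom 1, and Hnf4g was 1 of them each time. At an unadjusted p under 0.05, 3 were lower and 1 was higher (edgeR). Cdx1, a factor of intestinal identity, was at 51.1 ± 2.5 CPM in double mutants and 68.9 ± 12.1 CPM in controls (adjusted p = 0.493, edgeR). Vdr, the vitamin D receptor, lay apart at 71.9 ± 7.18 CPM, against 107 ± 14.8 CPM, without passing (log2 fold change -0.58 with SE 0.14, adjusted p = 0.0676, edgeR). Outside the list, Tcf7l2, the Wnt effector of gut crypts, was lower at 58.8 ± 8.02 CPM, against 87.2 ± 13.7 CPM (log2 fold change -0.57 with SE 0.12, adjusted p = 0.0458, edgeR), a call that was lost without any double-mutant replicate or control replicate 2, 3 or 4 (adjusted p up to 0.159). The Tcf7l2 call was also lost with voom (adjusted p = 0.056) and with only the compared groups (adjusted p = 0.0572). Tcf7l2 and the genes of the next paragraph other than Ms4a10, Clrn3, Prap1 and Ccr1 were chosen after their values were seen.

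The gene lists covered 33 of the 109 lower genes, and 76 stood in no list. Some of the 76 are described here as examples. Serpinb1a, an inhibitor of neutrophil proteases, was at 292, 198, 142 and 279 CPM in double mutants, against 738, 855, 908 and 1163 CPM in controls (log2 fold change -2.01 with SE 0.29, adjusted p = 0.00554, edgeR). Krt20, a keratin of gut surface cells, was at 24.9 ± 11.3 CPM, against 109 ± 36.6 CPM (log2 fold change -2.13 with SE 0.33, adjusted p = 0.00869, edgeR). Krt84, a hair keratin, was at 4.75 ± 2.92, against 39.7 ± 13.2 CPM (log2 fold change -3.05 with SE 0.43, adjusted p = 0.00454, edgeR). Calml4, a light chain of the intermicrovillar complex, was at 76.5 ± 8.1 CPM, against 140.0 ± 12 CPM (log2 fold change -0.87 with SE 0.11, adjusted p = 0.00236, edgeR). Mocs1, of molybdenum cofactor synthesis, was at 18.4 ± 3.6, against 42.7 ± 7.71 CPM (log2 fold change -1.21 with SE 0.17, adjusted p = 0.00445, edgeR). These 5 held in all 8 leave-one-out fits, as did Ms4a10, at 0.331 ± 0.331 CPM, against 7.7 ± 3.84 CPM (log2 fold change -4.50 with SE 0.76, adjusted p = 0.0125, edgeR). Ms4a10 was not called with voom (adjusted p = 0.0719). Clrn3, a clarin, was at 0.845 ± 1.6 CPM, against 19.2 ± 6.25 CPM (log2 fold change -4.51 with SE 0.81, adjusted p = 0.0173, edgeR), a call lost without double-mutant replicate 1 or control replicate 4 (adjusted p up to 0.0574). Prap1, a secreted protein of the gut lining, was at 0.602 ± 0.516, against 11.3 ± 6.75 CPM (log2 fold change -4.19 with SE 0.73, adjusted p = 0.0147, edgeR), a call lost without double-mutant replicate 3 (adjusted p up to 0.0605). Among the same 76 genes, H2-M2 was at 139 ± 38.6 CPM, against 331 ± 66.2 CPM, H2-Q10 was at 9.8 ± 2.76, against 29.9 ± 11.2 CPM, and Cd1d1, which presents lipids, was at 31 ± 6.16, against 54.4 ± 11 CPM (adjusted p = 0.0469, 0.0178 and 0.0426, edgeR). H2-M2 lost its call without double-mutant replicate 1, 2 or 3 or control replicate 2, 3 or 4 (adjusted p up to 0.154), H2-Q10 without double-mutant replicate 2 or 4 or control replicate 3 or 4 (adjusted p up to 0.0685) and Cd1d1 without any double-mutant replicate or control replicate 3 or 4 (adjusted p up to 0.152). The chemokine receptor Ccr1 was at 1.0 ± 0.869 CPM, against 14.6 ± 8.77 CPM (log2 fold change -3.82 with SE 0.70, adjusted p = 0.0178, edgeR), a call lost without double-mutant replicate 1 or 2 or control replicate 3 or 4 (adjusted p up to 0.0663). With voom Prap1, H2-Q10 and Ccr1 were not called (adjusted p = 0.19, 0.0588 and 0.10).

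In 3 of the lower genes the double mutants held almost no reads. Trem2, a myeloid receptor for lipids, had 0 counts over the 4 double mutants, against 72 over the 4 controls, at least 24.9-fold lower at a floor of 3 counts over the group, or 19.8-fold at the lower 95% counting limit of the ratio. Rdh7, a retinol dehydrogenase, had 1 count, against 142 (control over double-mutant ratio of their shares of all counts 147, 95% counting interval 26.0 to 5866), and Tmem37 had 3, against 132 (45.7, 15.3 to 224). These bounds cover counting error only, as PCR copies are not separate molecules. Trem2 lost its call without any double-mutant replicate or control replicate 2, 3 or 4 (adjusted p up to 0.0861), Rdh7 without double-mutant replicate 1, 2 or 3 (adjusted p up to 0.0584) and Tmem37 without any double-mutant replicate or control replicate 3 (adjusted p up to 0.0638). With voom Trem2 and Tmem37 were not called (adjusted p = 0.0647 and 0.236).

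**Figure D3:**
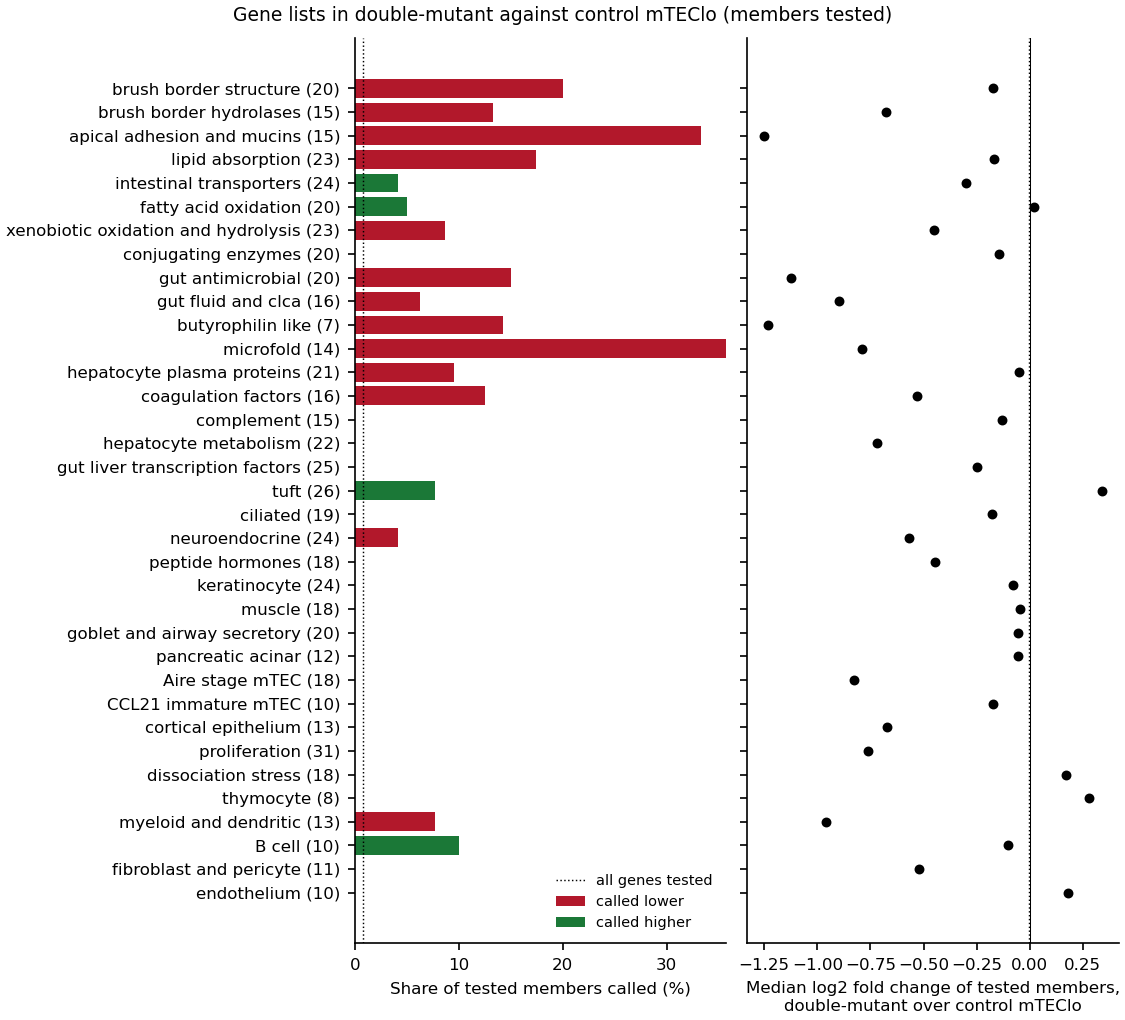
For each gene list with 5 or more tested members (number in brackets), the left panel shows the share of tested members called lower (red) or higher (green) in double-mutant over control mTEClo in percent, with the 0.74% of all genes as a dotted line, and the right panel the median log2 fold change, where the dotted line is the median of all genes. Microfold genes had the largest share called, 5 of 14, and the tuft list had the highest median, 0.34.

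The higher genes were led by Serinc3 (chr2:163623272-163645131), a membrane protein known to restrict retroviruses. It was at 336, 315, 337 and 291 CPM in double mutants, against 164, 155, 183 and 167 CPM in controls, nearly 2-fold and tightly spaced in both groups (log2 fold change 0.93 with SE 0.09, adjusted p = 0.000311, edgeR). Serinc3 lies within 1 Mb of Hnf4a on chromosome 2, and no other tested gene of that stretch was called. It overlaps 0610039K10Rik on the opposite strand. It was also at 310.0, 299 and 254 CPM in Hnf4a-removed mTEClo and at 166, 160.4 and 146 CPM in Hnf4g-removed mTEClo, so both groups with Hnf4a(fl/fl) were high and both with Hnf4a(fl/+) low. Pex3, of peroxisome assembly, was at 335, 373, 384 and 357 CPM in double mutants, against 259, 215, 240.3 and 237 CPM in controls (log2 fold change 0.61 with SE 0.09, adjusted p = 0.00682, edgeR). Itprip was at 100.4 ± 10.8, against 58.8 ± 9.83 CPM (log2 fold change 0.77 with SE 0.13, adjusted p = 0.0125, edgeR). Serinc3, Pex3 and Itprip were the 3 higher calls that held in all leave-one-out fits. Pex3 overlaps Adat2 on the opposite strand.

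Other higher genes were of mixed kinds and mostly moved by little. Clic6, an intracellular chloride channel protein, was at 93.8 ± 13.3 CPM in double mutants, against 58.6 ± 7.56 CPM in controls, Entpd3, an ectonucleotidase, at 293 ± 22, against 201 ± 29.3 CPM, and Smtn, smoothelin of contractile cells, at 86.9 ± 9.07, against 57.5 ± 7.83 CPM (adjusted p = 0.0148, 0.0174 and 0.0285, edgeR). Dhx58, a sensor of viral RNA, was at 92.7 ± 13.4 CPM, against 64.7 ± 5.53 CPM, and Ppm1d, a phosphatase induced by p53, at 37.7 ± 5.16, against 23.2 ± 2.4 CPM (adjusted p = 0.0386 and 0.0419, edgeR). Ttll11, a tubulin polyglutamylase, was at 24.6 ± 1.59 CPM, against 13 ± 2.27 CPM, Srpx2 at 351 ± 35.5, against 224 ± 48.1 CPM, and Nup205, a nuclear pore protein, at 365 ± 26.6, against 248 ± 49.2 CPM (adjusted p = 0.0302, 0.0342 and 0.0342, edgeR). Each of the 8 lost its call in some leave-one-out fit. Clic6 lost it without control replicate 3 (adjusted p up to 0.0525), Entpd3 without double-mutant replicate 2 or 4 or control replicate 2, 3 or 4 (adjusted p up to 0.0666) and Smtn without double-mutant replicate 1, 2 or 3 or control replicate 3 or 4 (adjusted p up to 0.111). Dhx58 lost it without double-mutant replicate 1, 2 or 4 or any control replicate (adjusted p up to 0.128) and Ppm1d without any double-mutant replicate or any control replicate (adjusted p up to 0.15). Ttll11 lost it without any double-mutant replicate or control replicate 2 or 4 (adjusted p up to 0.111), Srpx2 without any double-mutant replicate or control replicate 2, 3 or 4 (adjusted p up to 0.11) and Nup205 without any double-mutant replicate or control replicate 2, 3 or 4 (adjusted p up to 0.132).

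A pair of tuft genes was higher, amid small positive log2 fold changes across their list. Of 26 tested tuft genes none had a negative log2 fold change (median 0.34). In every library 14 lay apart on the higher side, as did 3.54% of all genes. By edgeR 2 passed as higher (7.69%, against 0.16% of all genes). Their summed level was 17560 to 19240 CPM in double mutants, against 13070 to 16910 CPM in controls. Ptgs1, cyclooxygenase 1, was at 653, 691, 689 and 718 CPM, against 541, 388, 389 and 459.7 CPM (log2 fold change 0.63 with SE 0.11, adjusted p = 0.0148, edgeR). Avil, advillin of the tuft cell cytoskeleton, was at 3325, 3290.0, 3676 and 3441 CPM, against 3080.3, 2434, 2545 and 2276 CPM (log2 fold change 0.41 with SE 0.08, adjusted p = 0.0342, edgeR). Ptgs1 lost its call without double-mutant replicate 2 or control replicate 3 (adjusted p up to 0.0563) and Avil without any double-mutant replicate or control replicate 2, 3 or 4 (adjusted p up to 0.128). Pou2f3, the factor that specifies tuft cells, was at 314 ± 13.1 CPM, against 251 ± 23.8 CPM (log2 fold change 0.32 with SE 0.09, adjusted p = 0.12, edgeR). Trpm5, their taste channel, was at 2551 ± 120.3, against 1993 ± 280.0 CPM (log2 fold change 0.36 with SE 0.09, adjusted p = 0.105, edgeR). DESeq2 called 10 tuft genes higher and voom 4. In bulk libraries of sorted cells, more or fewer cells of a type and more or less RNA per cell cannot be told apart.

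Few genes of other mimetic programs passed by edgeR. Of 24 neuroendocrine genes 1 was lower, Scg5, a chaperone of prohormone processing, at 55.7 ± 7.18 CPM, against 91.5 ± 8.95 CPM (log2 fold change -0.72 with SE 0.12, adjusted p = 0.0134, edgeR). Of the 24, 18 were negative (median -0.57), and 4 lay apart on the lower side, as did 4.39% of all genes. DESeq2 called 3 lower and voom 1, and by edgeR 7 were lower and 0 higher at an unadjusted p under 0.05. By edgeR, 0 genes passed of 19 ciliated, 18 peptide hormone, 24 keratinocyte, 18 muscle, 20 goblet and airway secretory and 12 pancreatic acinar genes. DESeq2 called 2 goblet genes and 1 acinar gene lower and 0 in the other 4 lists, and voom 0 in all 6. At an unadjusted p under 0.05 the 6 lists had 1, 3, 3, 2, 4 and 2 lower and 0, 0, 1, 0, 2 and 2 higher genes. With only the compared groups edgeR called 2 goblet genes lower and 0 genes of the other 5 lists, and with no filter 1, 6, 2, 2, 6 and 2 lower and 0, 1, 0, 5, 5 and 3 higher. Goblet genes differed in both directions without passing. Tff3 was at 6.33 CPM in double mutants, against 28 CPM in controls (log2 fold change -2.14, edgeR adjusted p = 0.0575), and Muc5b at 359, against 100 CPM (log2 fold change 1.84, edgeR adjusted p = 0.229).

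Some groups of genes lay apart between the genotypes in their sums although 0 of their members passed by edgeR. All 18 genes of the Aire stage, with Aire, MHC class II and costimulatory genes, had a negative log2 fold change (median -0.83), and their summed level was 6339 to 7679 CPM in double mutants, against 9300 to 16290 CPM in controls. Aire was at 182, 146, 228 and 213 CPM, against 207, 413, 442 and 559 CPM, where control replicate 1 lay among the double mutants (log2 fold change -1.07 with SE 0.38, adjusted p = 0.242, edgeR). DESeq2 and voom also called 0 of the 18, and 11 were lower at an unadjusted p under 0.05. Other edgeR settings did call some lower: 8 with only the libraries of the compared groups, 12 with no filter on low counts and 7 without Hnf4g-removed replicate 1. Of 31 proliferation genes 28 were negative (median -0.76), with sums of 321.9 to 373.4 CPM, against 400.1 to 726.3 CPM. DESeq2 called 5 of them lower, voom 0, edgeR 1 with only the compared groups, 9 with no filter and 3 each without control replicate 1 or Hnf4g-removed replicate 1, and 11 were lower at an unadjusted p under 0.05. Of 10 immature Ccl21-type, 13 cortical, 18 dissociation stress and 13 general epithelial genes 0 passed by edgeR, DESeq2 or voom, with 3, 5, 0 and 5 lower and 1, 0, 2 and 0 higher at an unadjusted p under 0.05 (edgeR). With only the compared groups, edgeR called 1, 1, 0 and 4 of them lower and 1, 0, 0 and 0 higher. With no filter it called 3, 5, 0 and 5 lower and 1, 0, 3 and 0 higher. Without Hnf4g-removed replicate 1 it called 1, 0, 0 and 2 lower and 1, 0, 0 and 0 higher, and without control replicate 1 it called 1 immature Ccl21-type gene lower. The part that these differences, or those of the tuft list, had in the called genes was not tested.

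Markers of cells that the sort should exclude were read in every library. Of 13 tested myeloid and dendritic markers 1 was lower, Sirpa, an inhibitory receptor, at 7.98 ± 3.46 CPM, against 24.4 ± 4.27 CPM (log2 fold change -1.61 with SE 0.30, adjusted p = 0.0186, edgeR), a call lost without double-mutant replicate 1, 2 or 3 or control replicate 3 (adjusted p up to 0.0719). The sums over these markers were 216.3 to 532.6 CPM, against 380.2 to 706.9 CPM. Of the 13, 10 had a negative log2 fold change (median -0.96). DESeq2 called 2 lower and voom 1, and by edgeR 5 were lower and 0 higher at an unadjusted p under 0.05. The defining markers C1qa and Tyrobp were at 0.59 and 1.79 CPM in double mutants, against 1.85 and 0.564 CPM in controls. Of 10 B cell markers 1 was higher. It was Ighm, the mu heavy chain, at 58.3 ± 5.95 CPM, against 36.1 ± 4.88 CPM (log2 fold change 0.69 with SE 0.14, adjusted p = 0.0342, edgeR), a call lost without double-mutant replicate 1, 2 or 3 or control replicate 2, 3 or 4 (adjusted p up to 0.132). The B cell sums were 205.2 to 230.6 CPM, against 163.7 to 183.8 CPM. Ms4a1, which defines B cells, was near 0 at 0.519 CPM, against 0.576 CPM. Cd79b lay apart at 120 ± 11.6 CPM, against 91.3 ± 12.6 CPM, without passing (log2 fold change 0.39 with SE 0.11, adjusted p = 0.123, edgeR). Of the 10 B cell markers 6 had a negative log2 fold change (median -0.10). DESeq2 called 2 higher and voom 1, and by edgeR 0 were lower and 3 higher at an unadjusted p under 0.05. Sums over 8 thymocyte markers were 89.31 to 104.4 CPM, against 64.35 to 90.39 CPM, and over 11 fibroblast markers 113.0 to 164.6 CPM, against 165.5 to 316.9 CPM. None of the thymocyte, fibroblast, endothelial (10) or erythroid (3) markers passed by edgeR, DESeq2 or voom, and 0, 4, 1 and 1 were lower and 1, 1, 0 and 0 higher at an unadjusted p under 0.05 (edgeR). The part of such cells in the lower genes that myeloid cells also express, such as Fgr, Trem2, Ccr1 and Cd177, was not tested.

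Most of the lower genes were higher inside the entero-hepato gate of wild-type mTEC. Of 108 lower genes tested there, 92 were higher and 3 lower inside the gate than outside it, with a median log2 fold change of 2.71, against -0.051 over all genes. In that comparison 22.7% of genes were higher and 21.8% lower, and 39 of the 108 were over 10-fold higher. The 92 are 84.4% of the lower genes but 2.49% of the 3695 gate-higher genes tested in both. Of the 14 microfold genes 13 were also higher inside the gate, with the 5 lower in double mutants among them. A higher level there therefore does not set entero-hepato genes apart from microfold genes. Lypd8 was at 6007 to 9790.5 CPM inside the gate, against 51.7 to 91 CPM outside it (log2 fold change 6.70 with SE 0.28, adjusted p = 1.13e-06, edgeR). Muc13 was at 880.3 to 1325 CPM, against 21 to 26.3 CPM (log2 fold change 5.43 with SE 0.20, adjusted p = 8.54e-07, edgeR). Ccl6 was at 598 to 620.5 CPM, against 6.09 to 20.5 CPM (log2 fold change 5.48 with SE 0.32, adjusted p = 4.47e-06, edgeR). Of the 30 higher genes 9 were higher and 14 lower inside the gate. Ptgs1 was at 2.62 to 13.2 CPM inside, against 83.8 to 125 CPM outside (log2 fold change -3.90 with SE 0.43, adjusted p = 0.000135, edgeR). Slc40a1 went the other way, at 107 to 134 CPM, against 7.93 to 14.2 CPM (log2 fold change 3.40 with SE 0.20, adjusted p = 4.89e-06, edgeR).

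Of the 108, 16 lower genes were not higher inside the gate. Cd177, a glycoprotein known from neutrophils, was at 381, 219, 293 and 482 CPM in double-mutant mTEClo, against 1009, 690.1, 1086 and 746 CPM in controls (log2 fold change -1.36 with SE 0.25, adjusted p = 0.0186, edgeR). In wild type it was at 41.5 to 103 CPM inside the gate, against 63.8 to 415 CPM outside it (log2 fold change -1.43 with SE 0.59, adjusted p = 0.082, edgeR). Igfbp4, an IGF-binding protein, was at 4.57 ± 2.57 CPM in double mutants, against 22.7 ± 4.16 CPM (log2 fold change -2.32 with SE 0.40, adjusted p = 0.0135, edgeR), and its log2 fold change between the gates (inside over outside) was -0.33 (adjusted p = 0.0784, edgeR). Cr2, complement receptor 2, was at 27.4 ± 14.6 CPM, against 80.9 ± 17.2 CPM (log2 fold change -1.56 with SE 0.33, adjusted p = 0.0381, edgeR). Cd177 lost its call without double-mutant replicate 1, 2 or 3 or control replicate 3 (adjusted p up to 0.073), Igfbp4 without double-mutant replicate 1 or 2 (adjusted p up to 0.0532) and Cr2 without double-mutant replicate 1, 2 or 3 or control replicate 2, 3 or 4 (adjusted p up to 0.125). The rest were Trem2, Adra1a, Zfp423, Ecel1, Prodh, BB123696, Efcab11, Synpo2, Gcat, Cd200, Dnaic2, Tns3 and Slco5a1, of which Synpo2, Efcab11 and Tns3 were lower inside the gate. With voom Trem2, Adra1a, Zfp423, Ecel1 and BB123696 were not called in mTEClo (adjusted p 0.0616 to 0.125). In mTEChi 0 of the 16 passed as lower, while 42 of the 92 did, beside 0.623% of all genes tested in both subsets. Not passing there does not mean no change. In mTEChi the log2 fold change was -1.39 for Cd177, 0.13 for Igfbp4 and -0.19 for Cr2 (adjusted p = 0.276, 0.929 and 0.844, edgeR). These 3 examples and the split were chosen after the values were seen.

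In mTEChi, the medullary cells of high MHC class II, other libraries of the same genotypes gave 110 lower and 7 higher genes of 18413 (0.597% and 0.038%). Of the 108 genes lower in mTEClo and tested there, 42 were lower and 0 higher in double-mutant mTEChi (DESeq2 called 59 lower and 0 higher, voom 41 and 0, and 0 were higher at an unadjusted p under 0.05), and 98 were negative, with a median of -0.82 beside 0.016 over all genes. The 42 are 38.5% of the mTEClo list and 39.6% of the 106 mTEChi-lower genes tested in both. Muc13 was at 14.5 to 17.7 CPM in double-mutant mTEChi, against 69.8 to 99.9 CPM in control mTEChi (log2 fold change -2.33 with SE 0.16, adjusted p = 2.91e-05, edgeR). Lyz1 was at 218 to 278 CPM, against 703 to 828 CPM (log2 fold change -1.62 with SE 0.11, adjusted p = 2.17e-05, edgeR). Vil1 was at 15.8 to 23.4 CPM, against 58.8 to 82.9 CPM (log2 fold change -1.84 with SE 0.17, adjusted p = 0.000417, edgeR). Of the 30 higher genes 1 passed there, Serinc3, at 202 to 242 CPM, against 123 to 154 CPM (log2 fold change 0.61 with SE 0.11, adjusted p = 0.0255, edgeR). Their median in mTEChi was 0.057. Over all genes the mTEChi count of 117 was 188 without double-mutant replicate 3 and 71 without control replicate 4.

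A test of the difference between the subsets passed for 12 of 20095 genes (0.0597%, 8 negative, 0.0398%, and 4 positive, 0.0199%), 7 of them called in mTEClo. Apoa4 had the lower log2 fold change in mTEClo, and in mTEChi it was at 33.3 to 50.1 CPM in double mutants, against 55.9 to 90 CPM in controls (difference of log2 fold changes, mTEClo minus mTEChi, -3.03, adjusted p = 0.0323, edgeR). Reg1 differed by -5.92 and Trem2 by -6.30 (adjusted p = 0.0482 and 0.0182, edgeR). Myo15b, a myosin, fell by more in mTEChi, at 10.9 to 21.3 CPM, against 51.4 to 83.4 CPM, than in mTEClo, at 111 ± 9.52 CPM, against 166 ± 19 CPM (difference 1.63, adjusted p = 0.0182, edgeR). The count of 12 was 1 without control mTEChi replicate 4 and 157 without double-mutant mTEChi replicate 3.

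**Figure D4:**
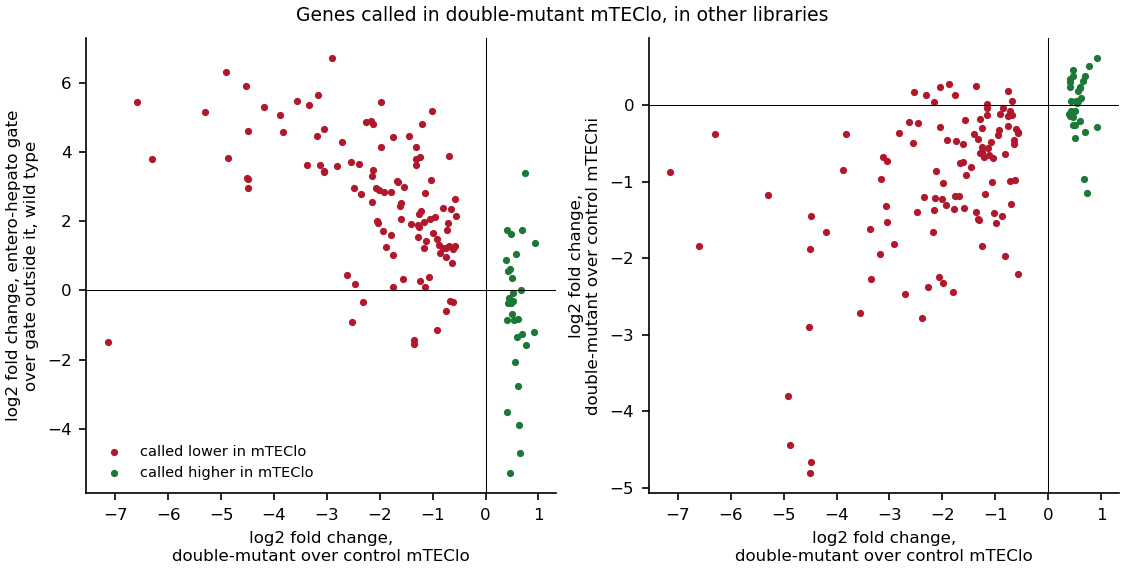
Each point is a gene called in mTEClo, with its log2 fold change of double-mutant over control mTEClo on the horizontal axis. The vertical axis is the log2 fold change of the wild-type entero-hepato gate over the gate outside it (left) or of double-mutant over control mTEChi (right). Most red points, the lower genes, lie above 0 in the left panel (99 of 108) and below 0 in the right panel (98 of 108).

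Against mTEClo that lacked Hnf4g but kept 1 Hnf4a allele, the double mutants differed in 2 of 18775 genes (0.0107%, 1 in each direction at 0.00533%). Serinc3 was higher (log2 fold change 1.02 with SE 0.10, adjusted p = 0.000401, edgeR) and Rps12, a ribosomal protein gene, lower (log2 fold change -1.24). Of the 109 genes lower than control, 0 passed by edgeR or voom as lower and 2 by DESeq2, 94 were negative with a median of -0.45, and 44 were lower at an unadjusted p under 0.05. The count of called genes was 119 without Hnf4g-removed replicate 1, so this comparison rests on that library. Against mTEClo that lacked Hnf4a but kept 1 Hnf4g allele, 55 genes differed (49 lower, 0.261%, and 6 higher, 0.032%), and 43 of the 109 were among the lower ones, with all 109 negative and a median of -1.45. The count fell to 7 without Hnf4a-removed replicate 3. Both comparisons use the same double-mutant libraries as the comparison with controls, by which the 109 were picked.

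Levels set side by side over the 4 genotypes differed between genes. Fabp1 was at 3.15, 3.83, 2.51 and 2.97 CPM in double mutants, 2.97, 3.36 and 2.66 CPM in Hnf4g-removed, 20.9, 14.6 and 20.9 CPM in Hnf4a-removed and 11.3, 25, 45 and 32.6 CPM in control mTEClo. Hnf4g-removed libraries lay within the range of the double mutants, and Hnf4a-removed ones within that of the controls. Ccl6 was at 17.8, 10.6 and 2.1 CPM in Hnf4g-removed and 83, 60.9 and 98.4 CPM in Hnf4a-removed mTEClo, which put the Hnf4g-removed libraries below every control. Mep1a was at 5.56, 20 and 12.1 CPM in Hnf4g-removed and 52.8, 61.2 and 78.9 CPM in Hnf4a-removed mTEClo, in the same arrangement. Sis differed, being low at 2.04, 2.3 and 1.96 CPM in Hnf4g-removed and 3.48, 1.46 and 3.51 CPM in Hnf4a-removed mTEClo, both below every control. Ttr was at 0.927, 2.83 and 0.421 CPM in Hnf4g-removed and 0.605, 1.9 and 1.75 CPM in Hnf4a-removed mTEClo. Cd177 was at 713, 426 and 343 CPM in Hnf4g-removed and 553, 402 and 352 CPM in Hnf4a-removed mTEClo. The Hnf4a-removed libraries of both genes lay below every control. Ptgs1 was at 551, 547 and 489 CPM in Hnf4g-removed and 462, 609 and 578 CPM in Hnf4a-removed mTEClo, all below the double mutants. Over the 109 lower genes the fitted log2 fold change against control had a median of -1.75 in double mutants, -1.11 in Hnf4g-removed and -0.24 in Hnf4a-removed mTEClo. These contrasts share the control libraries. The 109 were also picked for low values in these double mutants against these controls, so the double-mutant median is favoured by the choice. Against control, 18 genes passed in Hnf4g-removed mTEClo, all lower (0.0959%) and 14 of them among the 109, and 1 gene in Hnf4a-removed mTEClo, Serinc3, which was higher (0.00533%).

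**Figure D5:**
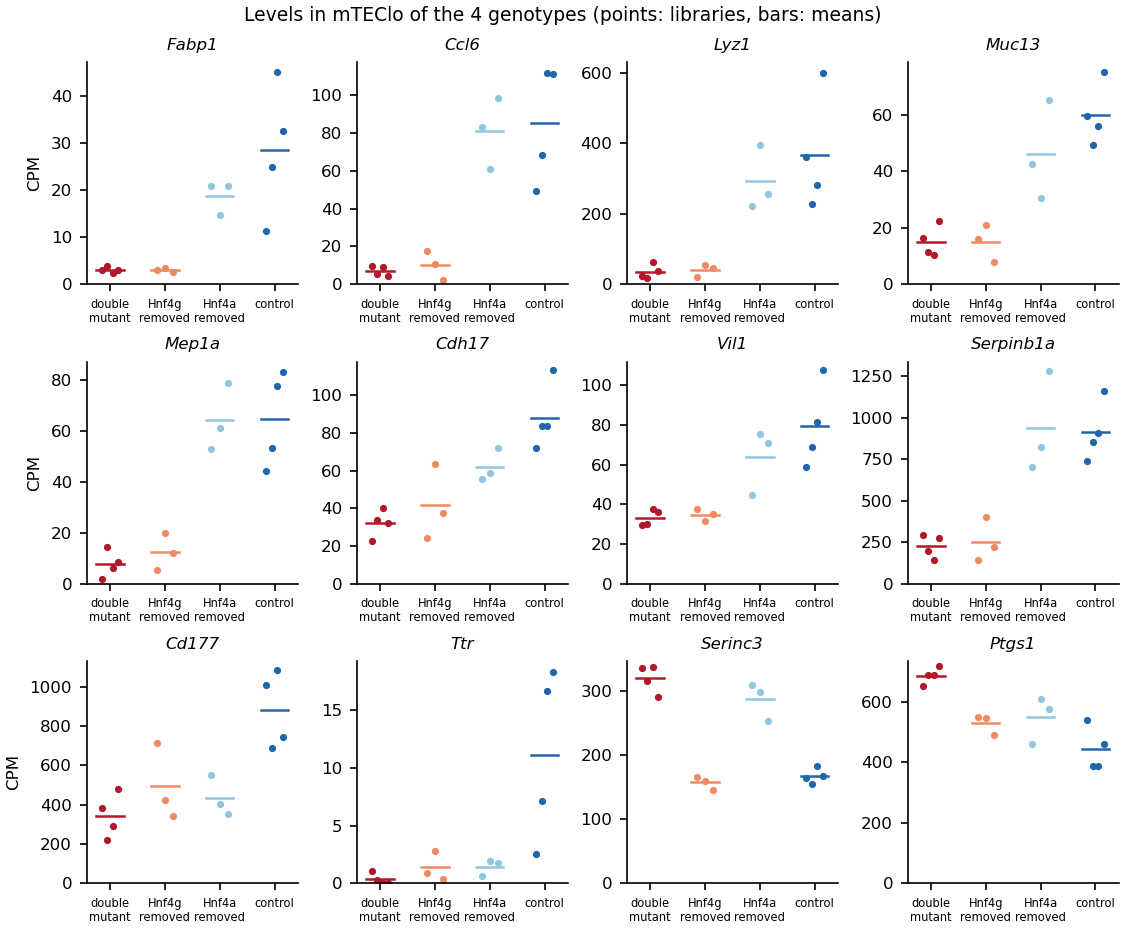
CPM of 12 genes in mTEClo libraries of the double mutant, Hnf4g-removed, Hnf4a-removed and control genotypes, in that order, with bars at the means. In the Fabp1, Ccl6, Lyz1 and Mep1a panels the Hnf4g-removed points sit with the double mutants, while in the Serinc3 panel the Hnf4a-removed points do.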

How the data were processed

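Bulk RNA of about 1000 sorted cells a library was amplified with a Smart-seq and Nextera XT kit, which does not mark strand, and read in pairs, per the labels' protocols. The authors' deposited table gives raw counts of reads per gene symbol for 28 libraries, made with STAR 2.7.3a and featureCounts on mm10, per the submitters' processing notes. The annotation and strand setting were not stated there. No molecular identifiers were used, so intervals cover counting error only. Every column matched 1 library's label.

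The main test was edgeR 4.0.16 (quasi-likelihood, TMM scaling, R 4.3.3) on 14 mTEClo libraries of 4 genotypes, with genes kept at a minimum count of 10 and a minimum total of 15 and Benjamini-Hochberg adjustment to 0.05. The mTEChi (8 libraries), the gates (6) and the subset difference (16) had fits of their own. DESeq2 1.42.0 and limma 3.58.1 (voom) were alternatives, and the SE is the size of the log2 fold change divided by the square root of the F statistic. The edgeR steps were tested on simulated data. Gene positions came from GENCODE M21 (52897 symbols matched of 55011) and promoters from RefSeq (GRCm38.p6). No 2 replicates agreed within sampling noise.

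The genes named are Hnf4a, Hnf4g, Aire and 4 markers, then up to 15 called genes of the largest fold in each direction at 5 CPM or more, then up to 5 called genes of smallest p in each list. Other list members were named as examples after their values were seen. The comparison and the gene lists were chosen with earlier results of these data known.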

Additional observations from a re-analysis of the deposited data

Results flagged for a closer look

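Of 122 groups of 4 libraries examined, 5 held a library whose gap to the nearest other exceeded Dixon's 95% critical value for 4 values. About 1 in 20 groups does so by chance. These were double-mutant replicate 4 for Rdh7, at 0.149 CPM, double-mutant replicate 2 for Clrn3, at 3.24 CPM, double-mutant replicate 3 for Ceacam20, at 0.397 CPM, and double-mutant replicate 4 for Entpd3, at 325 CPM. In controls it was replicate 1 for the ribosomal protein share, at 1.53%. The part of that library in any result is shown by the fits that leave it out.

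The double-mutant effect differed between mTEClo and mTEChi, by an edgeR interaction test, for 7 genes called in mTEClo. The log2 difference, mTEClo minus mTEChi, was -6.30 for Trem2, -5.92 for Reg1, -3.03 for Apoa4, -2.69 for Zfp423 and -1.17 for Slc30a2. It was 1.64 for Myo15b and 0.76 for Pstpip2. Trem2 had 0 counts in the double-mutant mTEClo, so its value is fitted and depends on the prior count.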

How the results depend on the processing

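For the 58 genes that the naming rule gave, no alternative run turned the direction. For double-mutant against control mTEClo, 139 genes passed with edgeR, 452 with DESeq2, 967 with no filter on low counts and 295 with only the libraries of the compared groups. Leaving out 1 library gave 47 to 262 genes: at most 89 without double-mutant replicate 1, 2 or 3 or control replicate 2, 3 or 4, 94 without double-mutant replicate 4, 207 without control replicate 1 and 262 without Hnf4g-removed replicate 1, a fit added after seeing the data. DESeq2 called all 139 genes, and voom 106 of them. Against Hnf4g-removed mTEClo the count was 2, with 13 under DESeq2's size factors, 179 with DESeq2, 6 with voom, 516 with no filter, 1 with the compared groups alone and 1 to 119 without a library (119 without Hnf4g-removed replicate 1). Against Hnf4a-removed mTEClo it was 55, with 279, 30 and 733 by DESeq2, voom and no filter, and 7 to 93 without a library (7 without Hnf4a-removed replicate 3, and 93 in the added fit without Hnf4g-removed replicate 1). In mTEChi it was 117, with 437 by DESeq2, 619 with no filter and 71 to 188 without a library (71 and 74 without control replicate 4 and 3, 188 without double-mutant replicate 3). The subset difference had 12, with 349, 4 and 321 by DESeq2, voom and no filter, and 1 to 157 without a library (1 without control mTEChi replicate 4, 85 without control mTEClo replicate 1, 157 without double-mutant mTEChi replicate 3). The gates had 7479 (6301 to 7993 over all settings). Hnf4g passed by DESeq2 (log2 -1.29), voom (-1.32) and no filter (-1.27), and ranged over -1.61 to -1.11 without a library, passing without control replicate 1 (-1.41) or double-mutant replicate 4 (-1.61). Hnf4a ranged over -0.79 to -0.30. The causes were not tested. With the number as a replicate block, the counts were 204 for mTEClo against control (125 of the 139 kept), 7 and 104 against the single genotypes, 89 in mTEChi, 5 for the subset difference and 7037 for the gates. The block also called 2 Aire-stage, 2 proliferation and 2 general epithelial genes lower. Same-numbered libraries correlated at -0.025 to 0.035 in their deviations, and only replicate 1 correlated best with its own number. Replicate 1 also lay lowest on principal component 1 in each mTEClo genotype. It was at -28.6 in double mutants, -2.13 in controls, -8.74 in Hnf4a-removed and -40.6 in Hnf4g-removed mTEClo. Its Aire counts were lowest in controls (1543), Hnf4g-removed (912) and Hnf4a-removed mTEClo (1239). In double mutants they were not (1332, against 987 in replicate 2). Whether same-numbered libraries shared a batch was not tested. Genes under about 10 CPM rest on few reads, and small changes there were not detectable at this depth.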
